A study of Arabidopsis thaliana with 18 samples.

Results

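The genes described here encode proteins of the large (60S) subunit of the cytosolic ribosome of Arabidopsis thaliana. They were chosen by locus: 60 loci were listed, and a locus was measured if the array annotation gave it a probe set assigned to 1 gene. This left 37 genes, each with 1 probe set, out of 13286 genes named in this way on the array. All 37 passed the filter on dim signals, for which a probe set had to reach the 40th percentile of its array on at least 3 of 18 arrays. The annotation names nearly all of these genes by locus code only, so the protein family written beside each code (L4, L19 and so on) follows the usual naming of Arabidopsis ribosomal proteins and was not read from the annotation. By that naming the 37 genes fall into 18 families, of which 13 have more than 1 measured gene. No protein or promoter sequence of these genes was used here.

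Suspension-cultured cells of 3 kinds were compared on Affymetrix ATH1 arrays. They were VND6 cells, transformed with an estrogen-inducible VND6, SND1 cells, transformed with an estrogen-inducible SND1, and wild-type (wt) cells. VND6 is a NAC transcription factor known as a switch of xylem vessel differentiation, and SND1 is one known for secondary wall formation in fibres. Each kind was sampled at 12 h after 2 µM estrogen was added and at 0 h, with 3 arrays for each of the 6 groups, so that VND6, SND1 and wt cells at 12 h are each set against their own cells at 0 h. All groups at 12 h had both estrogen and 12 h of culture, and the design has no cells at 12 h without estrogen, so the effects of estrogen and of time cannot be told apart in wt cells. The labels do not say whether a transformed line was 1 clone, and transcript levels of VND6 and SND1 themselves are not described here.

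The cytosolic ribosome has a small subunit, which decodes the messenger RNA, and a large subunit, which joins the amino acids and releases the growing chain through a tunnel. In plants each ribosomal protein is encoded by a small family of near-identical genes, and several of these paralogues are usually expressed in the same cell. Transcripts of ribosomal protein genes are known to be abundant in growing and dividing cells and to move together with nutrient supply and with signalling through the TOR kinase.

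Values are the authors' deposited linear signals, which were scaled on every array to the same trimmed mean. A change is therefore relative to the rest of the array, and in cultured cells fewer cells of a kind and less RNA per cell cannot be told apart. Differences are on the scale of log2(signal + 4.32), with SE from limma fitted over 15715 probe sets, and a call means an adjusted p under 0.05 (Benjamini-Hochberg over all 15715). Replicates 2 and 3 of a group were more alike (Spearman's rho 0.984 to 0.991 over the tested probe sets) than replicate 1 and either of them (0.872 to 0.958). Whether replicates were separate cultures is not given by the labels, so p-values measure only the spread among arrays, which may be technical. Among xylem markers with a probe set of their own, 5 of 14, 4 were called higher at 12 h than at 0 h in VND6 cells and 4 in SND1 cells, and in wt cells 3 were called lower and none higher. IRX15 differed by 2.81 in VND6 cells and 6.38 in SND1 cells, against -0.20 in wt cells, and AT5G66390 by 7.63, -0.37 and -0.68 in the same order. RCA, the 1 photosynthetic marker of 4 with a probe set of its own, differed by -4.41, -3.63 and -4.44.

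The large-subunit genes were higher at 12 h than at 0 h in all 3 kinds of cells. Together they held 3.37 ± 0.421% of the summed array signal in VND6 cells at 12 h, against 1.69 ± 0.0926% in VND6 cells at 0 h (SD, n = 3 each). In SND1 cells they held 3.05 ± 0.0726% at 12 h, against 1.51 ± 0.0326% at 0 h. In wt cells they held 3.45 ± 0.0838% at 12 h, against 1.20 ± 0.0979% at 0 h. No array at 12 h lay below an array at 0 h on this measure, and among the arrays at 12 h, replicate 1 of VND6 cells stood highest at 3.85%, above 3.19% and 3.07% in replicates 2 and 3.

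**Figure D1:**
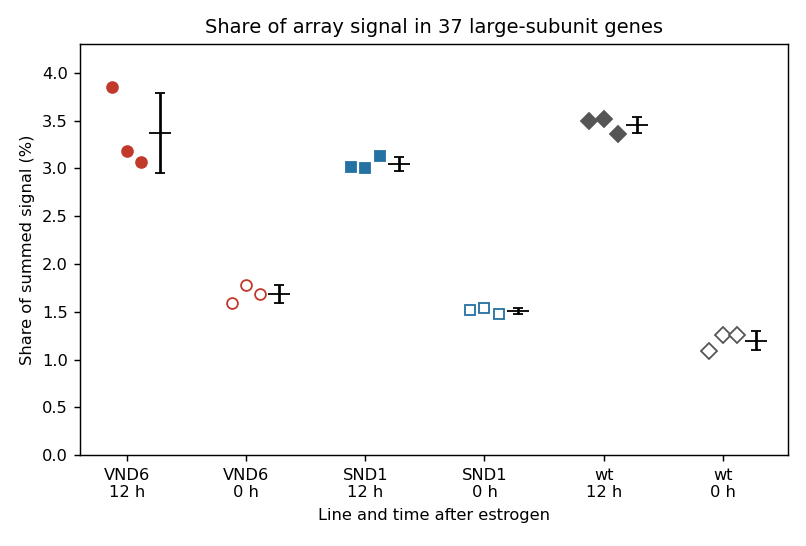
Share of the summed array signal, in percent, held by the 37 large-subunit genes on each of 18 arrays, by line and time (filled symbols, 12 h; open symbols, 0 h), with the group mean and SD (n = 3) as a black mark and bar beside the points. All 12 h arrays lie above all 0 h arrays, which run from 1.09% to 1.78%.

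Gene by gene, 33 of 37 rose in VND6 cells, where 28.8% of all tested probe sets were called higher (53.5% in either direction), and the median difference was 1.18 over the 37 genes and 0.0828 over all tested. In SND1 cells 32 rose, against 27.8% of all tested (50.6% in either direction), with medians of 1.33 and 0.0751. In wt cells 36 rose, against 32.1% of all tested (54.1% in either direction), with medians of 2.02 and 0.196. None of the 37 fell in any line, whereas 24.7%, 22.8% and 22.0% of all tested probe sets were called lower in VND6, SND1 and wt cells. The all-probe median of 0.196 in wt cells was 0.0783 after quantile normalization, and that of the 37 genes was then 1.91.

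The groups also separated array by array. All 3 arrays at 12 h stood above all 3 arrays at 0 h for 33 of the 37 genes in VND6 cells, for 35 in SND1 cells and for 37 in wt cells, against 31.4%, 36.1% and 35.1% of all tested probe sets. The 37 in wt cells include AT3G51190, which passed the filter only through arrays at 12 h. In all, 31 genes rose in each of the 3 lines. The share of all tested probe sets that did so was not counted, so this number has no background beside it. AT3G51190 was called in none. The other genes that missed a call were AT3G48960 in VND6 cells (0.82), AT5G27850 (0.39) and AT4G02230 (0.40) in SND1 cells, and AT1G67430 and AT3G49910 in both transformed lines, as described below.

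**Figure D2:**
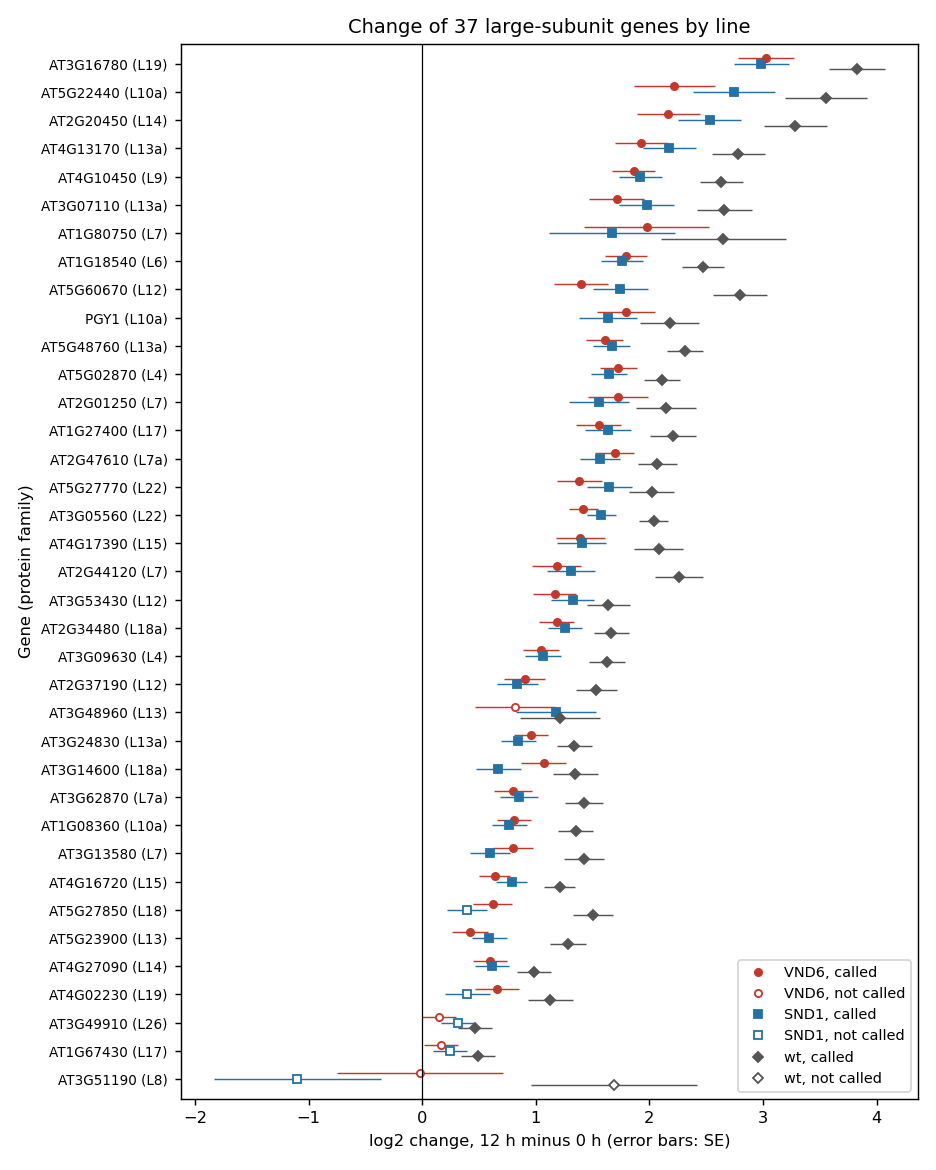
Difference between 12 h and 0 h in log2 signal (horizontal axis, with SE from limma) for each of the 37 genes, with the family in brackets, in VND6, SND1 and wt cells; filled symbols passed an adjusted p of 0.05 and open ones did not. The wt symbol is the rightmost of the 3 for each gene, from 0.46 for AT3G49910 to 3.83 for AT3G16780.

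L4 and L17 reach into the tunnel, and L26 stands near its exit. The L4 gene AT5G02870 rose by 1.73 in VND6 cells, 1.64 in SND1 cells and 2.11 in wt cells, and its paralogue AT3G09630 by 1.04, 1.06 and 1.63. The L17 gene AT1G27400 had signals of 23497, 15887 and 16064 in VND6 cells at 12 h, against 5857, 6332 and 6398 at 0 h, and it rose there by 1.55 (SE 0.20). It rose by 1.63 in SND1 cells and by 2.21 in wt cells, with no overlap between times in any line.

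The other L17 gene, AT1G67430, was called higher in wt cells only. Its signals were 53986, 40551 and 36012 in VND6 cells at 12 h, against 33665, 42092 and 39399 at 0 h, and these overlapped. They were 37072, 33510 and 38580 in SND1 cells at 12 h, against 32459, 30075 and 29507 at 0 h. In wt cells they were 45130, 40249 and 35468 at 12 h, against 31268, 25508 and 29100 at 0 h. The differences were 0.17 (adjusted p = 0.372, limma) in VND6 cells, 0.24 (adjusted p = 0.191) in SND1 cells and 0.49 (SE 0.15, adjusted p = 0.0114) in wt cells, of which the last was called. This probe set gave the highest signal of its array on 9 of the 18 arrays, among them the highest of the whole table, 53986.3. The L26 gene AT3G49910, at signals of 18080 to 35287, differed by 0.14, 0.31 and 0.46 in VND6, SND1 and wt cells, and only the wt difference was called (adjusted p = 0.0150, limma). Both wt calls were lost without the wt array of replicate 2 at 0 h or that of replicate 1 at 12 h, with adjusted p-values up to 0.0527 for AT1G67430 and 0.0625 for AT3G49910, and also when each array was centred on its median or no filter was used. Whether the upper end of the signal scale limited these changes was not tested.

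L10a forms the L1 stalk, beside the site where the used transfer RNA leaves, and L12 sits at the base of the P stalk, which the translation factors touch. The L10a gene AT5G22440 had signals of 11560, 17562 and 16276 in VND6 cells at 12 h, against 1292, 5052 and 4985 at 0 h, so that replicate 1 at 0 h stood far below the other two. In SND1 cells it had 7811, 9304 and 9385 at 12 h, against 1379, 1316 and 1238 at 0 h. In wt cells it had 10999, 10171 and 10300 at 12 h, against 926, 856 and 881 at 0 h. The times did not overlap in any line, and the rise was 2.22 in VND6 cells, 2.74 in SND1 cells and 3.56 in wt cells (SE 0.36 in each). Without VND6 replicate 1 at 0 h the VND6 rise was 1.57. PGY1 (AT2G27530), the L10a gene known as PIGGYBACK1 for its part in leaf polarity, rose by 1.80, 1.64 and 2.18 in the 3 lines in the same order. AT1G08360, the last of the 3 L10a genes, rose by 0.81, 0.77 and 1.35.

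Of the L12 genes, AT5G60670 had the largest rise in each line. Its signals were 14070, 10527 and 9857 in VND6 cells at 12 h, against 4915, 4330 and 3754 at 0 h. They were 10611, 9060 and 11061 in SND1 cells at 12 h, against 2168, 3799 and 3420 at 0 h. They were 12752, 12509 and 11878 in wt cells at 12 h, against 1212, 2069 and 2238 at 0 h. At 0 h every VND6 array stood above every wt array, and SND1 replicate 1 lay within the wt range. The rise was 1.40 in VND6 cells, 1.74 in SND1 cells and 2.80 in wt cells. AT3G53430 rose by 1.17, 1.33 and 1.64, and AT2G37190 by 0.90, 0.84 and 1.53. The VND6 rise of AT2G37190 was 0.60 with replicates 2 and 3 only.

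L19 makes a bridge to the small subunit, and its gene AT3G16780 had the largest rise of the 37 in each line. Its signals were 12923, 8390 and 8331 in VND6 cells at 12 h, against 1079, 1308 and 1169 at 0 h. They were 8960, 9485 and 8854 in SND1 cells at 12 h, against 821, 1323 and 1376 at 0 h, and in wt cells 11882, 12681 and 12470 at 12 h, against 580, 1052 and 1057 at 0 h. No array at 12 h came near those at 0 h: the differences were 3.03 (adjusted p = 6.34e-08), 2.99 (adjusted p = 9.97e-08) and 3.83 (adjusted p = 5.03e-09, limma) in VND6, SND1 and wt cells, with an SE of 0.25 each. Its paralogue AT4G02230 rose by 0.66 in VND6 cells and 1.13 in wt cells, and its SND1 difference of 0.40 was not called (adjusted p = 0.107, limma). The VND6 call of AT4G02230 was lost when the VND6 array of replicate 1 was left out, either at 0 h (0.44, adjusted p = 0.0602) or at 12 h (adjusted p = 0.0546).

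L8 lies close to the peptidyl transferase centre, and its only measured gene, AT3G51190, was the dimmest of the 37. Its signals were 89.1, 9.37 and 8.55 in VND6 cells at 12 h, against 23.3, 21.5 and 19.7 at 0 h. They were 36.4, 5.80 and 8.28 in SND1 cells at 12 h, against 38.0, 37.4 and 24.7 at 0 h, and in wt cells 73.5, 60.8 and 80.8 at 12 h, against 25.1, 5.21 and 41.4 at 0 h. The times overlapped in VND6 and SND1 cells and not in wt cells, and the differences of -0.02, -1.10 and 1.69 (SE 0.73 each) were not called. It reached the filter's percentile on 3 arrays only, 2 of wt cells and 1 of VND6 cells, all at 12 h, so it passed only through arrays on which it was high, and no test of it is read here. The only other dim gene was the L13 gene AT3G48960, at 78.2 to 228 in VND6 cells at 12 h, against 52.1 to 79.2 at 0 h, and at 123 to 171 in wt cells at 12 h, against 51.9 to 66.1 at 0 h. The remaining 35 genes had signals over 300 on every array.

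The other families were also higher at 12 h, by amounts that differed between their genes. For L13a, a protein that in mammals also acts off the ribosome to silence certain transcripts, AT4G13170 rose by 1.93, 2.18 and 2.78 in VND6, SND1 and wt cells. AT3G07110 rose by 1.71, 1.98 and 2.66, AT5G48760 by 1.61, 1.67 and 2.31, and AT3G24830 by 0.96, 0.85 and 1.34. Of the 4 L13a genes AT3G24830 thus had the smallest rise in each line. In the L7 family, AT1G80750 rose by 1.97, 1.67 and 2.65, with an SE of 0.55, the widest among the bright genes. Its wt change was 3.66 in replicate 1 and 2.14 and 2.15 in replicates 2 and 3. Its SND1 call was lost when the 0 h array of SND1 replicate 1 or the 12 h array of SND1 replicate 2 or 3 was left out (highest adjusted p 0.0903). AT2G01250 rose by 1.72, 1.55 and 2.15, AT2G44120 by 1.18, 1.31 and 2.26, and AT3G13580, the smallest of the 4 in each line, by 0.80, 0.60 and 1.42.

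Among the families with 1 measured gene, the L9 gene AT4G10450 rose by 1.86, 1.92 and 2.63 in VND6, SND1 and wt cells, and the L6 gene AT1G18540 by 1.80, 1.76 and 2.47. The L18 gene AT5G27850 rose by 0.62 in VND6 cells and 1.50 in wt cells. Its SND1 difference of 0.39 was not called (adjusted p = 0.0704, limma). In the families with 2 genes, the L14 gene AT2G20450 rose by 2.17, 2.53 and 3.28 and AT4G27090 by 0.60, 0.61 and 0.98. With replicates 2 and 3 only, the VND6 rise of AT4G27090 was 0.36. AT2G20450 had the larger rise of this pair in each line. For L7a the rises were 1.69, 1.56 and 2.07 (AT2G47610) and 0.80, 0.85 and 1.42 (AT3G62870). For L15 they were 1.39, 1.40 and 2.08 (AT4G17390) and 0.64, 0.79 and 1.21 (AT4G16720). For L18a they were 1.18, 1.26 and 1.67 (AT2G34480) and 1.07, 0.67 and 1.35 (AT3G14600). The L22 genes rose by nearly the same amounts, AT5G27770 by 1.38, 1.65 and 2.02 and AT3G05560 by 1.42, 1.58 and 2.04. Of the L13 pair, AT5G23900 rose by 0.42, 0.59 and 1.29. Its VND6 call was lost when the 0 h array of VND6 replicate 1 or 3 or the 12 h array of VND6 replicate 1 was left out (highest adjusted p 0.165). The difference was 0.25 without that 12 h array and 0.18 with replicates 2 and 3 only. AT3G48960 rose by 1.18 in SND1 cells and 1.21 in wt cells.

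The design allows paralogues to be compared on the same arrays, and the next question is whether genes of 1 family changed alike. For each of the 27 pairs within the 13 families, the difference between the log2 changes of the 2 genes was averaged over the 3 lines. It was tested with a 2-sided exact permutation of the time labels within each line (8000 assignments, smallest p 0.00025), and p-values were adjusted by Benjamini-Hochberg over the 27 pairs. Of these, 20 pairs in 10 families differed, and 13 of them were at the smallest p the test can give. Pairs of other probe sets were not tested, so this count has no background share beside it. In 13 of the 20 pairs, and in 18 of all 27, the gene with the larger rise had the lower mean signal. Levels of different probe sets are not comparable, so this does not show which gene was expressed less. Whether the signal scale limited the rise of the brighter genes was not tested. In all 20, the same gene had the larger rise in VND6, SND1 and wt cells. In 3 of them that direction within a line rested on 1 array: AT5G22440 minus PGY1 was -0.27 in VND6 cells without their 0 h array of replicate 1, AT3G07110 minus AT5G48760 was -0.003 without the same array, and AT3G53430 minus AT2G37190 was -0.003 in wt cells without their 0 h array of replicate 2 and -0.03 without their 12 h array of replicate 1. The permutation takes no account of the replicate numbers, which were taken to pair the times within a line. When labels were exchanged only within a replicate number, an alternative chosen after seeing the data, 23 pairs were called (512 exchanges, smallest p 0.00391), among them all 20 (adjusted p up to 0.0367). Probe sets of near-identical genes can bind each other's RNA; how far they did so here was not tested.

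The widest difference was between the L19 genes. AT3G16780 rose by 2.55 more than AT4G02230 (adjusted p = 0.000519, exact permutation), and the difference was 2.37 in VND6 cells, 2.59 in SND1 cells and 2.70 in wt cells. The signals of AT4G02230 were 23015, 16755 and 15752 in VND6 cells at 12 h, against 8507, 12943 and 14039 at 0 h, and 16941, 15119 and 14156 in wt cells at 12 h, against 5470, 7690 and 8292 at 0 h. They did not overlap between times, but moved far less than those of AT3G16780 on the same arrays.

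For L14, AT2G20450 had signals of 5984, 4123 and 3937 in VND6 cells at 12 h, against 806, 1140 and 1158 at 0 h, and of 6221, 6369 and 6806 in wt cells at 12 h, against 400, 809 and 887 at 0 h. Its paralogue AT4G27090 had 24593, 19931 and 18348 in VND6 cells at 12 h, against 11663, 15499 and 14401 at 0 h, and 21031, 20631 and 18511 in wt cells at 12 h, against 11753, 8905 and 9943 at 0 h. The rise of AT2G20450 exceeded that of AT4G27090 by 1.93 (adjusted p = 0.000519, exact permutation), with 1.57 in VND6 cells, 1.92 in SND1 cells and 2.30 in wt cells.

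**Figure D3:**
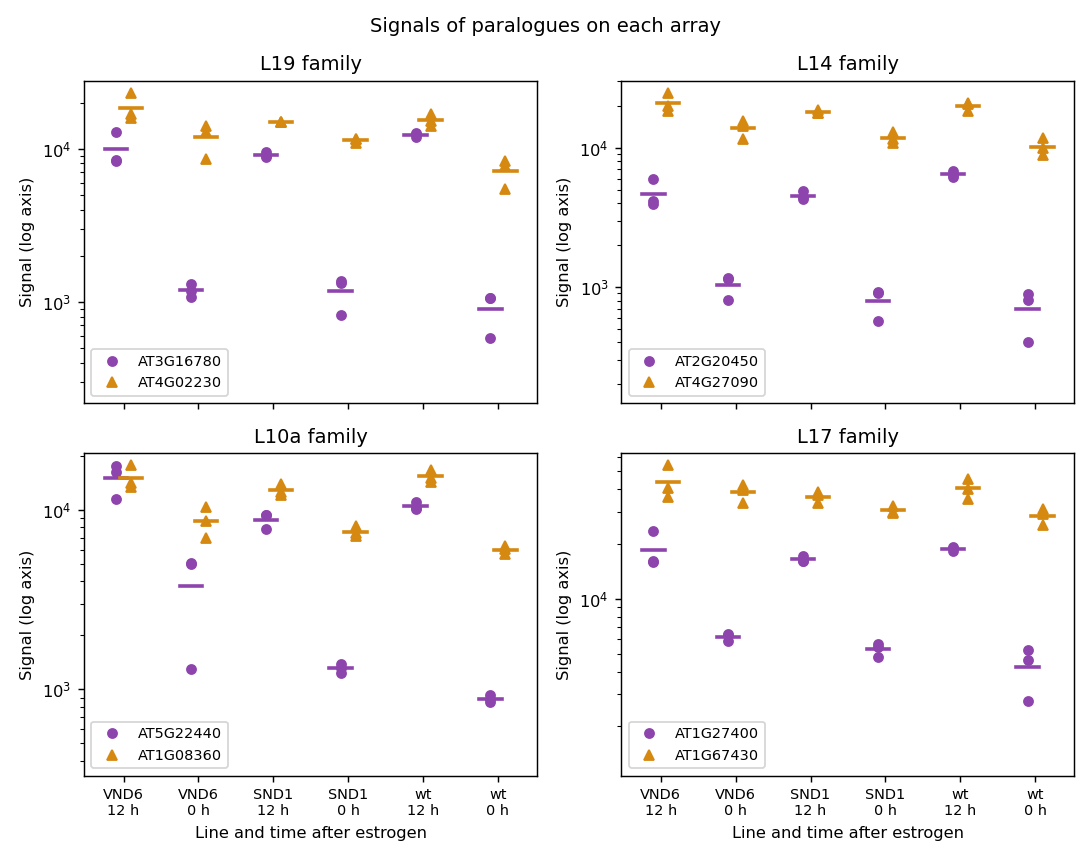
Signal on each array (log axis) of both genes of the L19, L14 and L17 pairs and of the widest L10a pair, by line and time, with a short bar at the mean of the 3 arrays of a group. The gene drawn with circles moves further between 12 h and 0 h than the gene drawn with triangles; levels of different probe sets are not comparable.

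For L10a, AT5G22440 rose by 1.87 more than AT1G08360 (adjusted p = 0.000519, exact permutation), with 1.41 in VND6 cells, 1.98 in SND1 cells and 2.21 in wt cells. It rose by 0.97 more than PGY1 (adjusted p = 0.00637), which was not called with replicates 2 and 3 only (0.85, adjusted p = 0.0543). In VND6 cells the changes of AT5G22440 were 3.16, 1.80 and 1.71 in replicates 1, 2 and 3, and those of PGY1 were 1.74, 1.89 and 1.76. PGY1 in turn rose by 0.90 more than AT1G08360. For L17 the difference of AT1G27400 minus AT1G67430 was 1.50, with 1.39 in VND6 cells, 1.39 in SND1 cells and 1.71 in wt cells. The difference was smaller for L4, where AT5G02870 exceeded AT3G09630 by 0.58 (adjusted p = 0.000519).

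In the families with 3 or 4 genes some pairs differed and others were not called. In L13a, AT4G13170, AT3G07110 and AT5G48760 rose more than AT3G24830, by 1.25, 1.07 and 0.81. AT4G13170 and AT3G07110 also exceeded AT5G48760, by 0.43 and 0.25, and the second of these was 0.08 and not called with replicates 2 and 3 only. AT4G13170 and AT3G07110 were not shown to differ (0.18, adjusted p = 0.103, exact permutation). In L7, AT1G80750, AT2G01250 and AT2G44120 rose more than AT3G13580, by 1.16, 0.87 and 0.64, and the 3 pairs without AT3G13580 were not called. In L12, AT5G60670 exceeded AT2G37190 by 0.89 and AT3G53430 by 0.60 (0.49 and 0.23 in VND6 cells, 0.91 and 0.42 in SND1 cells, 1.26 and 1.16 in wt cells). AT3G53430 exceeded AT2G37190 by 0.29, a call lost when the 0 h array of wt replicate 2 or 3 or the 12 h array of wt replicate 1 was left out.

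The other pairs that differed were those of L7a, where AT2G47610 exceeded AT3G62870 by 0.75, and of L15, where AT4G17390 exceeded AT4G16720 by 0.75. The L22 pair had the smallest difference of all 27, 0.01 (p = 0.948, exact permutation), with -0.04 in VND6 cells, 0.07 in SND1 cells and -0.02 in wt cells. The L18a pair missed the threshold at 0.34 (adjusted p = 0.0582) and the L13 pair at 0.30 (unadjusted p = 0.0815), which does not show that their genes changed alike. With labels exchanged only within replicate numbers, the L18a pair and the L7 pairs of AT1G80750 with AT2G01250 and with AT2G44120 were called as well (adjusted p = 0.0111, 0.0151 and 0.00586, exact permutation).

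**Figure D4:**
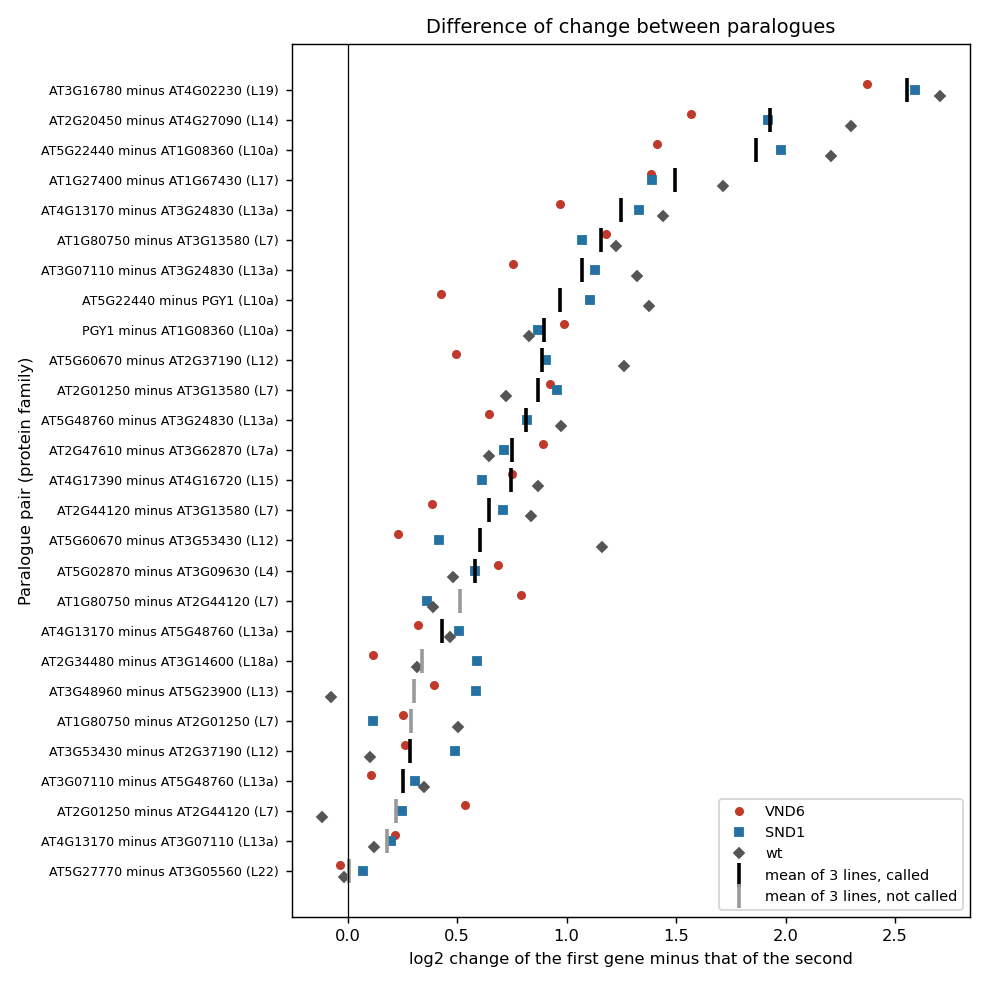
Log2 change between 12 h and 0 h of the first gene of a pair minus that of the second, in VND6, SND1 and wt cells (coloured symbols) and as the mean of the 3 lines (vertical mark; black if the pair was called, grey if not), for 27 pairs, each written with the gene of the larger mean change first. The marks run from 0.006 for the L22 pair to 2.55 for the L19 pair.

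The VND6 and SND1 responses beyond wt are the change between 12 h and 0 h in the transformed line minus that in wt cells. Each equals the difference from wt at 12 h minus the difference from wt at 0 h. A difference between lines already present at 0 h therefore enters the response, which cannot be credited to the factor alone. Both responses were below 0 for all 37 genes, with a median of -0.63 for VND6 and -0.61 for SND1, whereas 60.4% and 60.7% of all tested probe sets were below 0, with medians of -0.22 and -0.20. The 2 comparisons share the wt arrays, so these are not separate observations. The 37 include AT3G51190 (-1.71 and -2.79), which passed the filter only through wt and VND6 arrays at 12 h. Of the 37 genes, 6 were called lower in the VND6 response, where 7.99% of all tested probe sets were called lower, and 1 in the SND1 response, against 2.40%. None was called higher in either, against 5.84% and 3.47% of all tested. In both directions together, 13.8% and 5.87% of all tested were called.

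The genes called in the VND6 response were the L12 gene AT5G60670 at -1.40 (SE 0.34, adjusted p = 0.0137, limma), the L7 gene AT2G44120 at -1.08, the L18 gene AT5G27850 at -0.89, the L13 gene AT5G23900 at -0.86, the L13a gene AT5G48760 at -0.71 and the L22 gene AT3G05560 at -0.62. All 6 were called higher at 12 h in VND6 cells too, so the response was a smaller rise and not a fall. The count depended on single arrays: leaving out replicate 1 of VND6 gave 20 calls (its 12 h array) or 10 (its 0 h array), where 21.9% and 15.1% of all tested were called, and it was 4, 3 and 2 when the 12 h arrays of wt replicates 3, 1 and 2 were left out, 2 when the 0 h array of VND6 replicate 2 was, and 1 when the 12 h array of VND6 replicate 2 or 3 was. Counts given without a share of all tested are not read as a trait of the 37 genes. AT5G60670 was called whichever single array was left out (highest adjusted p 0.0441). The other 5 calls were each lost when certain arrays were left out, from 3 arrays for AT5G23900 to 9 for AT5G48760. With replicates 2 and 3 averaged and counted as 1 array, none of the 37 was called, against 0.802% of all tested.

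AT5G27850 was the 1 gene called in the SND1 response, at -1.11 (SE 0.25, adjusted p = 0.0141, limma). Its signals were 14603, 13835 and 16018 in SND1 cells at 12 h, against 14774, 10666 and 9063 at 0 h, and 14294, 18374 and 16952 in wt cells at 12 h, against 5235, 6699 and 5556 at 0 h. SND1 replicate 1 at 0 h lay within the range of the SND1 arrays at 12 h, while in wt cells the times did not overlap. It was called whichever single array was left out (highest adjusted p 0.0477), and the call was lost with replicates 2 and 3 averaged. The count of 1 became 2 without wt replicate 2 at 0 h and 3 without SND1 replicate 1 at 0 h, with no share of all tested beside these counts. With the replicate number as a block, AT3G13580 was called as well, at -0.83 (adjusted p = 0.0413, limma). In the VND6 response minus the SND1 response, none of the 37 was called by limma, against 0.745% of all tested. None had an unadjusted p under 0.05, against 7.74% of all tested. The median was -0.05, and 1 gene was called when the 0 h array of VND6 replicate 1 was left out, with no share of all tested beside it.

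Large-subunit genes were also called between lines at 0 h, on the same 0 h arrays that enter the responses beyond wt. In VND6 cells at 0 h, 13 of the 37 genes were higher than in wt cells at 0 h, where 4.80% of all tested probe sets were called higher, and none was lower, against 3.72% (8.51% in either direction). The median difference was 0.49 over the 37 genes and 0.0416 over all tested. The largest were AT5G22440 at 1.84 (SE 0.36, adjusted p = 0.00621, limma), AT5G60670 at 1.27, AT2G44120 at 1.04, AT5G27850 at 0.99 and AT3G07110 at 0.89. For AT5G60670 the signals were 4915, 4330 and 3754 in VND6 cells at 0 h, against 1212, 2069 and 2238 in wt cells at 0 h, with no overlap. The 8 others were AT3G09630, AT1G18540, AT1G08360, AT2G37190, AT5G23900, AT4G13170, AT4G17390 and AT4G02230, at 0.51 to 0.88. All arrays of VND6 cells stood above all arrays of wt cells for 27 of the 37 genes, against 13.4% of all tested.

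The number of calls at 0 h also depended on single arrays, though AT2G44120, AT5G22440, AT5G60670, AT5G23900 and AT5G27850 were called whichever was left out. The count was 5 without VND6 replicate 2, 6 without VND6 replicate 3 and 17 without VND6 replicate 1, and 0 of 37 were called with only the 6 arrays compared. These counts have no share of all tested beside them and are not read as a trait of the 37 genes. With replicates 2 and 3 averaged 0 were called too, as were 0 of all tested probe sets. The values for AT3G07110 and AT4G17390 were 0.50 and 0.53 without wt replicate 1, where wt replicate 1 had signals of 2032 and 3386, against 4418 to 6606 in wt replicates 2 and 3. In SND1 cells at 0 h, AT5G27850 alone was called higher than in wt cells, at 0.96 (adjusted p = 0.00889, limma). Of all tested, 1.88% were called higher there and 2.34% in either direction. The median difference was 0.35 over the 37 genes and 0.105 over all tested. It was above 0 for 34 of the 37 genes, against 60% of all tested. All SND1 arrays stood above all wt arrays for 13 of them, against 14.9% of all tested. The count of genes called was 2 without SND1 replicate 1 at 0 h, with no share of all tested beside it. After quantile normalization 7 were called, where 1.81% of all tested were.

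At 12 h few of the genes were called between lines. None of the 37 genes was called between VND6 and wt cells at 12 h by limma, where 27.1% of all tested probe sets were called (11.0% higher, 16.0% lower). An unadjusted p under 0.05 was found for 2, against 39.1% of all tested. The median difference was -0.06 over the 37 genes, and -0.212 over all tested. Arrays of the 2 lines overlapped for 33 genes. All VND6 arrays stood above all wt arrays for 1 gene and below them for 3, against 15.6% and 27.2% of all tested. With the 12 h array of VND6 replicate 1 left out, 1 of the 37 was called, with no share of all tested beside it. The median of the 37 genes was 0.07 when each array was centred on the median of the tested probe sets. Between SND1 and wt cells at 12 h all 37 differences were below 0, with a median of -0.24, against -0.118 over all tested, and 23 genes had every SND1 array below every wt array, against 23.4% of all tested. AT3G51190, which passed the filter only through wt and VND6 arrays at 12 h, is counted among the 37 and the 23.

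One gene was called there, the L9 gene AT4G10450, at -0.75 (SE 0.19, adjusted p = 0.0159, limma), where 3.86% of all tested were called lower (8.91% higher, 12.8% in either direction). Its signals were 5721, 6500 and 5445 in SND1 cells at 12 h, against 10076, 10303 and 9216 in wt cells at 12 h, and do not overlap. At 0 h they were 1165, 1886 and 1694 in SND1 cells, against 1303, 1840 and 1654 in wt cells, where they did overlap. The call was lost when the 12 h array of wt replicate 2 or of SND1 replicate 3 was left out (highest adjusted p 0.0714). Without SND1 replicate 1 the count was 2, where 9.47% of all tested were called.

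**Figure D5:**
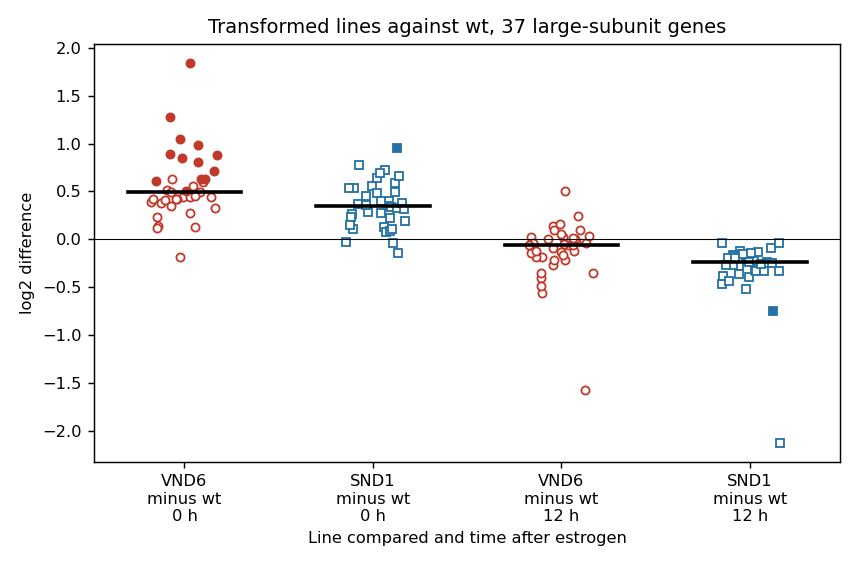
Log2 difference between a transformed line and wt cells at the same time for each of the 37 genes (points, spread sideways only to be seen; filled if called by limma, open if not), with the median of the 37 as a bar, for VND6 and SND1 cells at 0 h and at 12 h. The medians are 0.49 and 0.35 at 0 h and -0.06 and -0.24 at 12 h.

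Other genes of the ribosome were read from lists of loci. Of 43 tested genes for other cytosolic 60S proteins, 40 rose in VND6 cells, 42 in SND1 cells and 43 in wt cells, with medians of 1.45, 1.70 and 2.30, and AT5G40040 rose by 3.07, 3.88 and 5.29. Of 45 tested genes of the small (40S) subunit, 38, 39 and 43 rose, with medians of 1.23, 1.40 and 2.02, and AT5G61170 rose by 2.22, 2.50 and 3.28. All 9 tested ribosome assembly factors rose in each line, with medians of 1.82, 1.76 and 2.88. One of them is YAO, a nucleolar protein, which rose by 2.35, 2.30 and 3.45. None of these genes fell in any line. Of all tested probe sets, 28.8%, 27.8% and 32.1% were called higher in VND6, SND1 and wt cells, and 24.7%, 22.8% and 22.0% lower.

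Genes outside the cytosolic ribosome did not all move this way. Of 7 tested genes for the 50S subunit of the plastid ribosome, 1 rose and 3 fell in VND6 cells, 1 rose and 2 fell in SND1 cells, and 2 rose and 2 fell in wt cells. With only 7 genes, these counts were not tested against the shares of all tested probe sets and are not read as a trait of the list. AT1G16740 rose by 1.62, 1.48 and 2.19, while AT5G65220 differed by -1.86, -1.57 and -1.21, each a called fall. EIF4A-2, an RNA helicase of translation initiation and the 1 translation factor tested, rose by 2.15, 2.11 and 2.55. Of the TOR pathway 2 genes were tested: RAPTOR1, which presents substrates to the TOR kinase, fell by 0.92 in VND6 cells (adjusted p = 0.0365), was also called lower in SND1 cells (adjusted p = 0.0261) and had a difference of -0.72 in wt cells (adjusted p = 0.0961, limma), and RAPTOR2 had differences of 0.09, -0.45 and -0.15, none called.

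The remaining 23 listed loci have no value here. The annotation assigns AT1G74060, AT1G74050, AT1G33120, AT1G09590 and AT1G57660 only to probe sets shared by several genes, and names no probe set for the other 18, which are AT1G43170, AT1G61580, AT3G25520, AT5G39740, AT2G18020, AT4G36130, AT1G14320, AT1G26910, AT1G66580, AT2G42740, AT3G58700, AT3G49010, AT3G05590, AT1G02780, AT2G39460, AT3G55280, AT2G36620 and AT3G53020. Families are therefore described by the genes measured, which can be fewer than those the genome holds.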

How the data were processed

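Cells were profiled on Affymetrix ATH1 arrays with biotin-labelled cRNA from total RNA, per the labels' protocols, which name 2 labelling kits without tying either to an array. The intensity values used are the authors' deposited linear signals, which the submitters' processing notes credit to GCOS. Trimmed of 2%, the mean signal was 500.045 to 500.058 on all 18 arrays, with medians of 103 to 133. After scaling of this kind a change in total RNA cannot be seen. The number of arrays limits the precision.

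Tests used log2 of the value plus 4.32, the 10th percentile over the table. Control probe sets (64) were dropped, and 15715 of 22810 probe sets passed the filter. Of the probe sets, 13513 had 1 gene, 503 several and 8730 none; 13436 matched RefSeq (TAIR10.1), used for names only. For genes with several probe sets, that of highest mean signal was kept. Protein families of the members, which RefSeq does not name, follow the usual Arabidopsis nomenclature. The 6 group means were fitted over all 18 arrays by limma 3.58.1 in R 4.3.3 (eBayes with an intensity trend, Benjamini-Hochberg); paralogue pairs were tested by exact permutation. Both were tested on simulated data. The rule for named genes took the 5 largest rises and falls of each contrast among members called, members of called pairs, members in no pair, and up to 3 genes of each other list, of which examples are given. The text goes past it and gives values for all 37 members. The members, the 6 lists and the rule were chosen with earlier results of these data known. Promoter and protein sequences, planned for, were not used here.

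Whether replicate numbers pair arrays was checked on the correlation between same-numbered arrays of their departures from the group mean. Every pair exceeded 0.1 between the times of each line (0.188 to 0.380). So did SND1 with wt at 0 h (0.304 to 0.486) and 12 h (0.228 to 0.451) and VND6 with SND1 at 0 h. By this threshold numbers were taken to pair these, but not VND6 with wt (0.0230 to 0.186). Arrays of different numbers reached 0.290 between the times in wt cells, and 0.338 and 0.293 between SND1 and wt at 0 h and 12 h. These exceed the lowest same-number values there (0.255, 0.304 and 0.228), so the threshold does not settle the pairing there. Between the times in VND6 and SND1 cells they reached 0.196 and 0.173, below the lowest same-number values (0.205 and 0.188). Alternatives were quantile normalization, centring, other filters and pseudocounts, no trend, the replicate block, replicates 2 and 3 only or averaged, only the arrays compared, and leaving out each array.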

Additional observations from a re-analysis of the deposited data

Results flagged for a closer look

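For 7 results the change between 12 h and 0 h differed between a transformed line and wt cells in a direct test of that difference (limma, adjusted over all tested probe sets). In the VND6 response beyond wt these were AT5G60670 at -1.40 (adjusted p = 0.0137), AT2G44120 at -1.08 (adjusted p = 0.0265), AT5G27850 at -0.89 (adjusted p = 0.0261), AT5G23900 at -0.86 (adjusted p = 0.0189), AT5G48760 at -0.71 (adjusted p = 0.0497) and AT3G05560 at -0.62 (adjusted p = 0.0314). In the SND1 response beyond wt it was AT5G27850 at -1.11 (adjusted p = 0.0141). Of all tested probe sets, 7.99% were called lower in the VND6 response (13.8% in either direction) and 2.40% in the SND1 response (5.87% in either direction). With replicates 2 and 3 averaged none of the 7 was called. All VND6 calls but that of AT5G60670 were lost when certain single arrays were left out. With 3 arrays a group, no single array was tested for standing apart. At 0 h the differences between VND6 and wt cells were 1.27 (AT5G60670), 1.04 (AT2G44120), 0.99 (AT5G27850) and 0.80 (AT5G23900), all called higher, and 0.49 (AT5G48760) and 0.41 (AT3G05560), not called. At 12 h they were -0.13, -0.04, 0.10, -0.06, -0.21 and -0.21 for the same genes in the same order, none called. Between SND1 and wt cells AT5G27850 differed by 0.96 at 0 h, called higher, and by -0.15 at 12 h, not called.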

How the results depend on the processing

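The rise between 12 h and 0 h kept its direction and, within 1.5 times, its count in each line under every alternative run. Medians moved past the spread of the arrays in 3 cases: 1.83 in wt with replicates 2 and 3 only, 1.81 in wt without the 0 h array of replicate 1, and 1.38 in VND6 with a filter at the 60th percentile, where 35 genes were tested. The number of paralogue pairs that differed was 20 to 22 under other settings, 23 with labels exchanged within replicate numbers and 19 to 23 with 1 array left out. Comparisons between lines depended on the setting. With replicates 2 and 3 only, the counts called, with the share of all tested called, were 34 (VND6 beyond wt, 48.3%), 25 (SND1 beyond wt, 34.8%), 3 (VND6 minus SND1, 16.5%), 31 (VND6 against wt, 0 h, 30 higher and 1 lower, 48.0%), 13 (SND1 against wt, 0 h, 28.7%), 13 (VND6 against wt, 12 h, 1 higher and 12 lower, 61.2%) and 12 (SND1 against wt, 12 h, all lower, 46.6%). With replicates 2 and 3 averaged, 0 were called by limma in the VND6 and SND1 responses beyond wt, for both lines against wt at 0 h and for SND1 against wt at 12 h. With only the arrays compared they were 2 (VND6 beyond wt, 6.68%), 5 (SND1 beyond wt, 8.08%), 0 (each line against wt, 0 h) and 8 (SND1 against wt, 12 h, 22.0%). Quantile normalization gave 3 (SND1 beyond wt, 6.25%) and 7 (SND1 against wt, 0 h, 1.81%), no filter 3 (VND6 beyond wt, 7.82%) and 7 (VND6 against wt, 0 h, 4.66%), and no trend 7 (VND6 against wt, 0 h). The replicate block gave 2 for SND1 beyond wt (8.48%) and 2 for SND1 against wt at 12 h (16.6%), of which AT3G51190 is not read because of how it passed the filter, and moved no other count by over 1.5 times. With 1 array left out, the lowest and highest counts were 1 and 20 (VND6 beyond wt), 1 and 3 (SND1 beyond wt), 0 and 1 (VND6 minus SND1), 5 and 17 (VND6 against wt, 0 h), 1 and 2 (SND1 against wt, 0 h), 0 and 1 (VND6 against wt, 12 h), 0 and 2 (SND1 against wt, 12 h), 34 and 37 (wt), 31 and 34 (VND6) and 31 and 32 (SND1). The medians then ran from 1.81 to 2.13 in wt, 1.06 to 1.33 in VND6, 1.27 to 1.42 in SND1, -0.73 to -0.48 (VND6 beyond wt), -0.74 to -0.45 (SND1 beyond wt), -0.16 to 0.06 (VND6 minus SND1), 0.40 to 0.59 and 0.16 to 0.43 (VND6 and SND1 against wt, 0 h) and -0.21 to 0.02 and -0.29 to -0.22 (VND6 and SND1 against wt, 12 h). Of the counts with 1 array left out, the 37 in wt cells includes AT3G51190, which is not read because of how it passed the filter. Other counts of called genes may include it too. Counts of called genes given here without a share of all tested are not read as a trait of the 37 genes. Why these settings differ was not tested. Each gene or pair was read once in each comparison and alternative. Where the gene or pair was called as reported, the call was kept in 2432 such readings and lost in 159. Where it was not, a call was gained in 215 and not gained in 4751. None of the called differences reversed. Losses were uneven between comparisons. With 1 array left out, 29 readings lost a call in the VND6 response beyond wt and 29 in VND6 against wt at 0 h. Between 12 h and 0 h, 4 did in wt, 5 in VND6 and 3 in SND1 cells. Signal over background limits AT3G51190 and AT3G48960.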
